A study of Mus musculus with 9 samples.

Results

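The metallothionein and zinc transport genes followed here are 9 of the 24421 gene symbols in the count files: Mt1, Mt2, Mtf1, Slc30a1, Slc30a10, Slc39a4, Slc39a5, Slc39a8 and Slc39a14. They were taken by name, with earlier results of these data known, all 9 were listed, and all 9 passed the filter on low counts that left 14104 genes for testing. RNA of whole liver was sequenced from 4 OGT-deficient mice and 5 wild-type (WT) mice, described in the series design as littermates. Mice of both groups were of the C57BL/6J background, 5 weeks old and without food for 6 h, and both sexes were used. OGT is O-GlcNAc transferase, which attaches N-acetylglucosamine to nuclear and cytoplasmic proteins. How the gene was deleted, the cell types in which it was deleted, and the sex and litter of each mouse are not stated in the labels.

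Metallothioneins are small cysteine-rich proteins that bind zinc, copper and cadmium in the cytoplasm, and in liver their transcripts are known to respond to zinc, to glucocorticoids and to inflammatory cytokines. The zinc-sensing transcription factor MTF1 binds metal response elements (MREs) in the promoters of Mt1, Mt2 and Slc30a1. Zinc transporters fall into an SLC30 (ZnT) family, which lowers cytoplasmic zinc by export or by filling organelles, and an SLC39 (ZIP) family, which brings metal into the cytoplasm. Some members also carry manganese, with ZIP14 (Slc39a14) taking it into hepatocytes and ZnT10 (Slc30a10) exporting it.

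Libraries held 36323832 to 45102080 counts in genes in OGT-deficient liver and 32337861 to 54130901 in WT liver, so that 3 counts correspond to 0.0572 to 0.104 CPM (a count relative to a library size scaled by the trimmed mean of M-values, TMM). Ogt itself measured 16.9 ± 2.70 CPM (SD, n = 4) in OGT-deficient liver and 61.6 ± 10.4 CPM (SD, n = 5) in WT liver, which matches the labels. Of all tested genes 61.1% passed the test at an adjusted p under 0.05, 31.6% higher and 29.4% lower in OGT-deficient liver. In 51.3% of tested genes all OGT-deficient values lay above, or all below, the WT values. The median log2 fold change of all tested genes was 0.022, and with upper-quartile scaling it was 0.145, which moved the share of higher calls to 62.5%, against 51.8% with TMM. The TMM factors were 1.09 to 1.22 in OGT-deficient and 0.880 to 0.915 in WT libraries, so the scaling lowered OGT-deficient values relative to WT values. Every fit used factors of this kind (TMM, DESeq2 or upper-quartile), and plain library sizes were not tried. Small falls and the separation of groups in CPM depend on this scaling. Adjusted p-values here come from edgeR's quasi-likelihood test with Benjamini-Hochberg adjustment over the 14104 genes.

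The tissue itself differed in its markers, read here beside the 61.1% of all tested genes that passed. Of 13 hepatocyte markers 11 fell and 0 rose, and their summed level was 62852 to 79745 CPM in OGT-deficient liver and 120418 to 145469 CPM in WT liver. Of 11 tested cholangiocyte markers 10 rose and 1 fell, with sums of 163.4 to 277.9 CPM and 50.04 to 80.5 CPM in OGT-deficient and WT liver. Stellate cell and myofibroblast markers numbered 15, with 14 that rose and 0 that fell (1053 to 1431 CPM against 249.2 to 518.4 CPM in WT). Of 12 recruited macrophage markers 10 rose and 0 fell (344.5 to 489.7 CPM against 87.9 to 121.2 CPM in WT). The sums of Kupffer cell markers (646.3 to 1107 CPM against 644.3 to 948.9 CPM in WT) and endothelial markers (394.9 to 692.5 CPM against 611.0 to 815.7 CPM in WT) overlapped between the groups. Of 11 Kupffer cell markers 3 rose and 1 fell, and of 12 endothelial markers 1 rose and 4 fell. Pancreatic acinar markers, of which both tested ones fell, summed to 6.53 to 12.2 CPM against 20.4 to 33.4 CPM in WT. The sums of B and plasma cell markers, of which 2 rose and 2 fell of 7, were 107.173 to 127.4 CPM against 60.1 to 107.162 CPM in WT. These sums nearly touched, and the median log2 change of the markers was -0.71, opposite in direction to the sum. The hepatocyte, cholangiocyte, stellate, recruited macrophage, acinar, and B and plasma cell sums differed between the same libraries as the genes below, and their part in those results was not tested. In whole liver, fewer cells of a type and less RNA per cell cannot be told apart.

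Mt1 and Mt2 stand side by side on chromosome 8 (GRCm38), Mt2 at 94172664 to 94173568 and Mt1 at 94179082 to 94180327, both on the plus strand. Slc30a1 is on chromosome 1 (191906767 to 191913247, plus strand). The promoters of these 3 genes are shown because they are textbook carriers of MREs, against which the levels of the transcripts can be read. The sequences are from RefSeq (GRCm38.p6), the 250 bases before each start annotated there and 30 of the bases that follow it, and capitals mark the MRE core TGCACNC or TGCGCNC on either strand.

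Mt1, before the start, chr8:94178839-94179088, plus strand: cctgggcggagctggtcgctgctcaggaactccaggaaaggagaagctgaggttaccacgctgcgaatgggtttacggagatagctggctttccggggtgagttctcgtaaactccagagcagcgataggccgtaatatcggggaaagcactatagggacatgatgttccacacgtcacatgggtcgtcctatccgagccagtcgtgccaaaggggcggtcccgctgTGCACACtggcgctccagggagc
Mt1, after the start, chr8:94179089-94179118, plus strand: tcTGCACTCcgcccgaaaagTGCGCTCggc
Mt2, before the start, chr8:94172368-94172617, plus strand: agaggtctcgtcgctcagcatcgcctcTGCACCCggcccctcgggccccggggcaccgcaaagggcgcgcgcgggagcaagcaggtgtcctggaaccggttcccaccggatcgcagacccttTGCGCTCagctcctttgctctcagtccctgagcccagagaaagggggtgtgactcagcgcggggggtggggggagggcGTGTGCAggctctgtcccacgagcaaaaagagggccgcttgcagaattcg
Mt2, after the start, chr8:94172620-94172649, plus strand: tcGTGCGCAggcccaggggcgtgtgctggc
Slc30a1, before the start, chr1:191906531-191906780, plus strand: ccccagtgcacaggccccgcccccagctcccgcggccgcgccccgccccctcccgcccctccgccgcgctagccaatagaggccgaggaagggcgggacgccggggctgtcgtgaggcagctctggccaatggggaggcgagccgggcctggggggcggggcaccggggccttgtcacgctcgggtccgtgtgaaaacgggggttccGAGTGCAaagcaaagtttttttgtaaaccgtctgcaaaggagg
Slc30a1, after the start, chr1:191906801-191906830, plus strand: cctccgggccGAGCGCAgtcgccgcggacg

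Windows of 300 bases, 250 before and 50 after the start, were searched for this core. The window of Mt2 held 4 matches, beginning 223, 128 and 50 bases before the RefSeq start and at base 5 counted from it. The window of Mt1 held 3 matches, beginning 23 bases before the RefSeq start and at bases 3 and 21 counted from it. The window of Slc30a1 held 2 matches, 43 bases before the RefSeq start and at base 31 counted from it. These RefSeq starts (94172618 for Mt2, 94179089 for Mt1 and 191906781 for Slc30a1) differ from the gene starts given above. For Mt2 the RefSeq start lies before the gene start of 94172664, and so do all its matches. Which starts are used in liver was not examined, so the positions hold for the RefSeq starts only. Over 32851 promoter windows of the same length, 25.7% held at least 1 match, 7.11% at least 2, 1.97% at least 3 and 0.517% at least 4. The window of Slc30a10, the manganese exporter gene, held 3 matches, of which 2 overlap each other on opposite strands. The window of Slc30a4, outside the set, also held 3, none of which overlap. The window of Mtf1 held 0, as did each window of Slc39a10, a gene tied to MTF1 in the literature. Slc39a4 and Slc39a14 were not searched. Slc39a5 and Slc39a8 have 2 annotated starts each, of which 1 window held 1 match and the other 0. A match describes letters and says nothing of whether the factor was bound there.

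Of the 9 genes, 2 rose in OGT-deficient liver (Mt2 and Mtf1), 3 fell (Slc39a4, Slc39a8 and Slc39a14) and 4 did not pass the test (Mt1, Slc30a1, Slc30a10 and Slc39a5). This 5 of 9 stands beside the 61.1% of all tested genes that passed, and is no larger a share. The median log2 fold change of the 9 genes was -0.17, with a median size of 0.36 regardless of sign, against 0.45 over all tested genes. In 3 of the 9 genes (Mt2, Slc39a4 and Slc39a8) the groups did not overlap, beside 51.3% of all tested genes. In 1 gene all OGT-deficient values were above all WT values, beside 26.2% of all tested genes, and in 2 genes they were below, beside 25% of all tested genes. The widest difference was that of Slc39a4, and Mt1, Mt2 and the scarce Slc39a5 varied most from mouse to mouse.

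**Figure D1:**
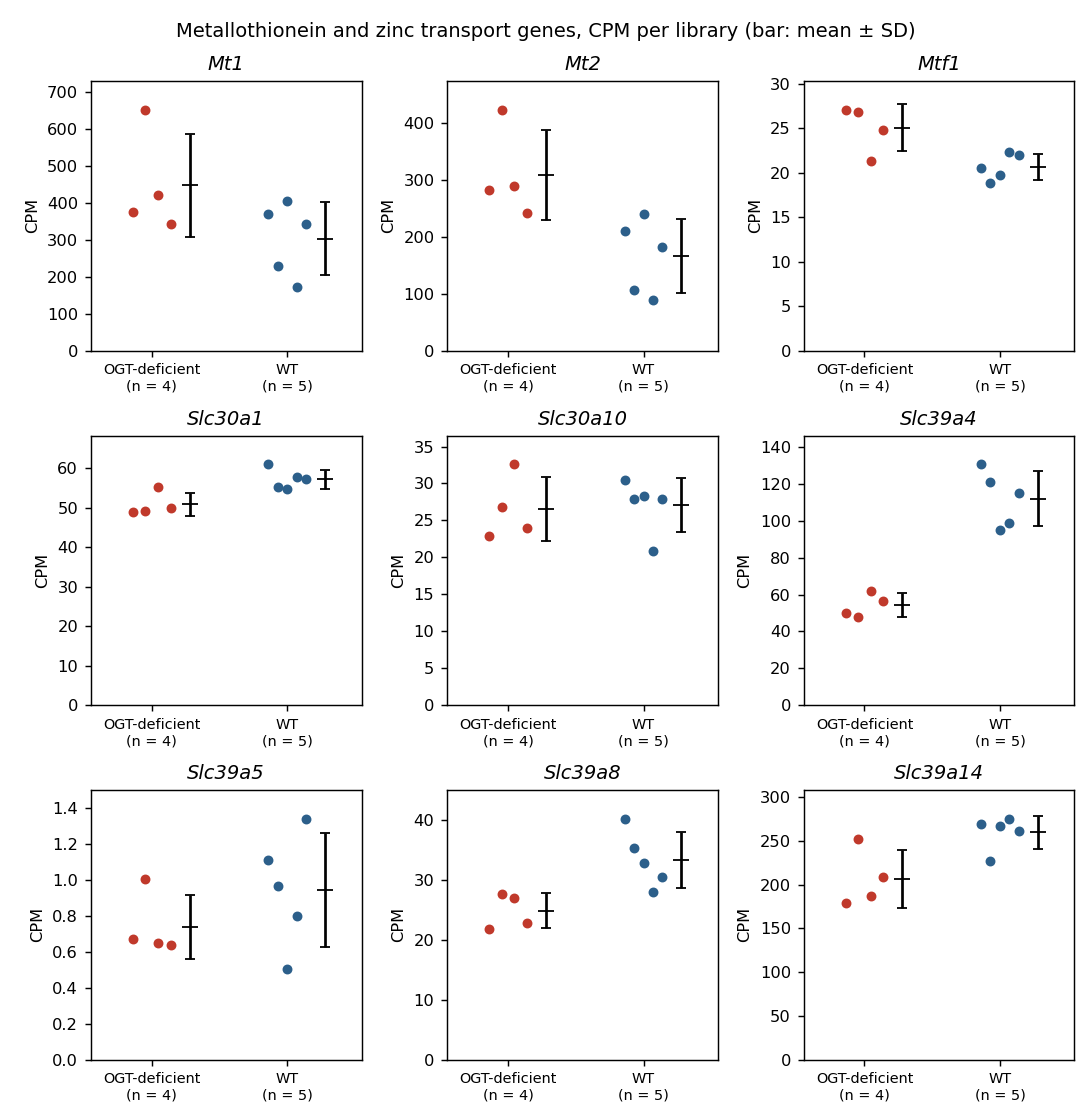
Level of each of the 9 genes in CPM (vertical axes, from 0) in 4 OGT-deficient libraries (red) and 5 WT libraries (blue), with bars for the mean and SD of each group. The OGT-deficient points of Mt2 lie above, and those of Slc39a4 and Slc39a8 below, all WT points, and in the other 6 panels the groups overlap.

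Mt2, a metallothionein of the liver and most other tissues, measured 281.9, 423.3, 288.9 and 242.7 CPM in OGT-deficient 1 to 4 and 211.3, 107.2, 241.3, 90.0 and 182.9 CPM in WT 1 to 5. Every OGT-deficient library was above every WT library, although OGT-deficient 4 and WT 3 were close. The means were 309.2 ± 78.7 CPM (SD, n = 4) in OGT-deficient liver and 166.6 ± 65.6 CPM (SD, n = 5) in WT liver. The log2 fold change was 0.89 (adjusted p = 0.0105, SE 0.26), a 1.86-fold rise. Without OGT-deficient 2, its highest library, the log2 fold change was 0.69 and the adjusted p 0.0416. An antisense transcript, Gm45774, which the count files do not list, contains 45.5% of the 50-base stretches of Mt2, so without a stated strand setting its reads cannot be told from those of Mt2.

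Mt1, the partner gene that encodes a protein of the same kind, measured 374.3, 651.5, 420.3 and 343.7 CPM in OGT-deficient 1 to 4 and 369.7, 228.9, 404.9, 172.6 and 341.8 CPM in WT 1 to 5. The groups overlapped: OGT-deficient 1 and 4 lay within the range of WT 1, 3 and 5. OGT-deficient 2 was the highest library and WT 2 and WT 4 were the lowest. The means were 447.4 ± 139.6 CPM (SD, n = 4) in OGT-deficient liver and 303.6 ± 98.5 CPM (SD, n = 5) in WT liver. The log2 fold change of 0.56 (SE 0.24) did not pass the test (adjusted p = 0.0631). Its adjusted p was 0.0291 to 0.261 over 16 alternative settings, of which 5 called it higher. The highest was without OGT-deficient 2, where the log2 fold change was 0.31. That Mt2 passed and Mt1 did not is no test of a difference between these genes.

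Mt1 and Mt2 ran in parallel among mice. Within WT liver the highest of the 5 libraries exceeded the lowest by 2.35-fold for Mt1 and 2.68-fold for Mt2, and the order of the libraries was the same for both genes, with WT 3 first, then WT 1, 5, 2 and 4. For comparison, the same quotient among WT mice was 1.11 for Slc30a1, 1.18 for Mtf1, 1.21 for Slc39a14 and 1.37 for Slc39a4. For Slc39a8 and Slc30a10 it was 1.44 and 1.46, and for the scarce Slc39a5 it was 2.66. Within OGT-deficient liver it was 1.90 for Mt1 and 1.74 for Mt2, with OGT-deficient 2 highest and OGT-deficient 4 lowest for both.

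The balance between Mt1 and Mt2 also stood apart between the libraries of the 2 groups. The number of Mt1 counts per Mt2 count, which does not depend on how libraries are scaled, was 1.33, 1.54, 1.45 and 1.42 in OGT-deficient 1 to 4 and 1.75, 2.13, 1.68, 1.92 and 1.87 in WT 1 to 5. All OGT-deficient libraries lay below all WT libraries, with means of 1.43 ± 0.0878 (SD, n = 4) and 1.87 ± 0.176 (SD, n = 5) in OGT-deficient and WT liver. This ratio was chosen after the values were seen and carries no test, and the antisense transcript at Mt2 limits it as it does Mt2.

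**Figure D2:**
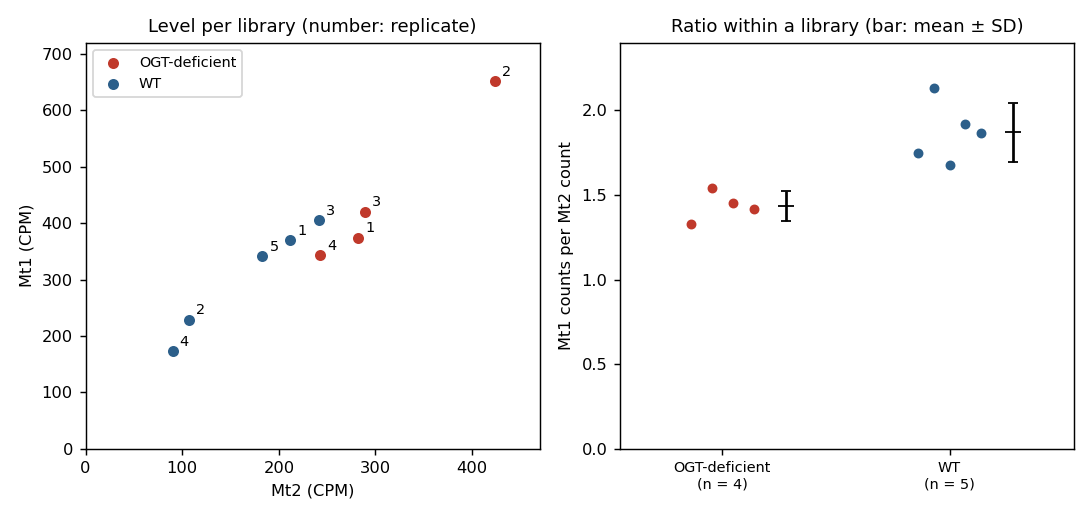
Left, Mt1 against Mt2 in CPM for 4 OGT-deficient (red) and 5 WT (blue) libraries, labelled by replicate number. Right, Mt1 counts per Mt2 count in the same libraries with mean and SD: the OGT-deficient values of 1.33 to 1.54 lie below the WT values of 1.68 to 2.13.

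The other metallothionein genes were near the limit of detection. Mt3, known from brain, had 18, 11, 7 and 2 counts in OGT-deficient 1 to 4 and 1, 0, 0, 0 and 0 counts in WT 1 to 5. It did not pass the filter on low counts. With no such filter it was called higher in edgeR's test (adjusted p = 0.00109), from 38 counts in all OGT-deficient libraries and 1 in all WT libraries. Mt4, known from stratified epithelium, had 0 counts in every library, which allows up to 0.0572 to 0.104 CPM.

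Mtf1, on chromosome 4 (124802104 to 124849800, plus strand), encodes the transcription factor that drives the metallothionein genes in response to zinc. It measured 27.1, 26.9, 21.4 and 24.9 CPM in OGT-deficient 1 to 4 and 20.6, 18.8, 19.8, 22.3 and 22.0 CPM in WT 1 to 5. OGT-deficient 3 lay among the WT values and the other 3 above them. The rise was small, to 25.1 ± 2.64 CPM (SD, n = 4) against 20.7 ± 1.46 CPM (SD, n = 5) in WT liver, with a log2 fold change of 0.28 (adjusted p = 0.0190, SE 0.09). The call was lost without OGT-deficient 1 (adjusted p = 0.0722), 2 (0.0714) or 4 (0.0505) in edgeR's test. The gene 1110065P20Rik on the opposite strand covers 8.09% of its exonic bases.

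The exporters of the set did not pass. Slc30a1 (ZnT1), the zinc exporter of the plasma membrane and an MTF1 target, measured 49.0, 49.2, 55.3 and 49.9 CPM in OGT-deficient 1 to 4 and 61.0, 55.2, 54.8, 57.7 and 57.4 CPM in WT 1 to 5. OGT-deficient 1, 2 and 4 lay below all WT libraries and OGT-deficient 3 within their range. The log2 fold change was -0.17 (adjusted p = 0.0555, SE 0.07). It passed with DESeq2's Wald test (adjusted p = 0.0434) and without OGT-deficient 3 (0.0366) in edgeR's test, and was -0.046 (adjusted p = 0.598) with upper-quartile scaling. The antisense gene 1700034H15Rik covers 8.92% of its exonic bases.

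Slc30a10 (ZnT10), the manganese exporter known for the bile canalicular side of hepatocytes, lies on chromosome 1 (185454848 to 185468762, plus strand). It measured 22.9, 26.8, 32.6 and 24.0 CPM in OGT-deficient 1 to 4 and 30.4, 27.95, 28.3, 20.9 and 27.96 CPM in WT 1 to 5. The ranges covered each other almost fully. The log2 fold change was -0.031 (adjusted p = 0.840, SE 0.13), and its sign turned under 3 of the 16 alternative settings. Gm2061, on the opposite strand, covers 9.13% of its exonic bases.

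The 3 well-expressed importers of the set fell, and the scarce one did not pass. Slc39a4 (ZIP4), the zinc importer whose human counterpart is mutated in acrodermatitis enteropathica, lies on chromosome 15 (76612383 to 76617384, minus strand). It measured 49.9, 47.9, 62.2 and 56.4 CPM in OGT-deficient 1 to 4 and 130.5, 120.9, 95.1, 98.8 and 114.8 CPM in WT 1 to 5. The groups stood well apart, and the highest OGT-deficient library (62.2 CPM, OGT-deficient 3) was far below the lowest WT library (95.1 CPM, WT 3). The means were 54.1 ± 6.50 CPM (SD, n = 4) in OGT-deficient liver and 112.0 ± 14.9 CPM (SD, n = 5) in WT liver. The log2 fold change was -1.05 (adjusted p = 6.74e-06, SE 0.11), a level 0.483 times that of WT. It was -1.12 to -0.93 over the 16 alternative settings and called in each. Slc39a4 fell in the libraries in which the summed hepatocyte markers were also lower, and a link between the 2 was not tested.

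Slc39a8 (ZIP8), an importer of zinc, manganese and iron, lies on chromosome 3 (135825279 to 135888572, plus strand). It measured 21.9, 27.7, 27.1 and 22.9 CPM in OGT-deficient 1 to 4 and 40.2, 35.4, 32.9, 27.95 and 30.5 CPM in WT 1 to 5. No values overlapped in TMM-scaled CPM, but OGT-deficient 2 and WT 4 were nearly equal. The fall was to 24.9 ± 2.93 CPM (SD, n = 4) against 33.4 ± 4.72 CPM (SD, n = 5) in WT liver, with a log2 difference of -0.43 (adjusted p = 0.00613, SE 0.11). With upper-quartile scaling it was -0.31 (adjusted p = 0.0349 in edgeR's test). The fall was called in all 16 alternative settings, none of which used plain library sizes.

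Slc39a14 (ZIP14), the closest relative of ZIP8 and an importer of manganese, zinc and iron that interleukin-6 is known to induce, lies on chromosome 14 (70303469 to 70351425, minus strand). It measured 178.8, 252.7, 187.3 and 208.3 CPM in OGT-deficient 1 to 4 and 268.9, 227.2, 266.7, 275.1 and 261.0 CPM in WT 1 to 5. OGT-deficient 2, the library highest in Mt1 and Mt2, was the only OGT-deficient library above any WT library, and it exceeded WT 2 alone. The means were 206.8 ± 33.0 CPM (SD, n = 4) in OGT-deficient liver and 259.8 ± 18.9 CPM (SD, n = 5) in WT liver, and the log2 fold change was -0.33 (adjusted p = 0.0174, SE 0.11). With upper-quartile scaling the log2 fold change was -0.21 (adjusted p = 0.0794), and without OGT-deficient 3 it was -0.29 (adjusted p = 0.0524 in edgeR's test), so neither called it. The counts cover the whole gene and do not separate its alternative exons.

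Slc39a5 (ZIP5), a zinc importer of the basolateral membrane in intestine and pancreas, lies on chromosome 10 (128395931 to 128401229, minus strand). It was scarce, with 32, 40, 34 and 26 counts in OGT-deficient 1 to 4 and 52, 46, 18, 23 and 45 counts in WT 1 to 5. In CPM the WT range of 0.505 to 1.34 enclosed the OGT-deficient range of 0.636 to 1.01. The log2 fold change was -0.36 (adjusted p = 0.326, SE 0.30), so no difference was called, and the counts varied widely between WT mice.

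The uptake and export genes for manganese can be set against each other within a library. Slc39a14 gave 7.82, 9.44, 5.75 and 8.69 counts per Slc30a10 count in OGT-deficient 1 to 4, and 8.84, 8.13, 9.42, 13.2 and 9.33 in WT 1 to 5. The groups overlapped, since OGT-deficient 2 and 4 lay within the WT range. WT 4, where Slc30a10 was lowest, gave the highest value, and OGT-deficient 3, where Slc30a10 was highest, the lowest.

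Levels were compared between genes per length, as CPM per kilobase (kb) of the principal transcript in GENCODE. The order of the 9 genes was the same in both groups: Mt1, Mt2, Slc39a14, Slc39a4, Slc30a1, Slc39a8, Slc30a10, Mtf1 and Slc39a5. Mt1 stood at 815.0 ± 254.3 and 553.0 ± 179.4 CPM per kb in OGT-deficient and WT liver, and Mt2 at 605.1 ± 154.0 and 325.9 ± 128.5 CPM per kb (SD, n = 4 and 5). The ranges of Mt1 and Mt2 overlapped in each group. Slc39a14 followed at 42.0 ± 6.70 CPM per kb in OGT-deficient liver and 52.7 ± 3.84 CPM per kb in WT liver. Slc39a4 overlapped with it in WT liver (34.6 to 47.5 CPM per kb against 46.1 to 55.9 for Slc39a14) but not in OGT-deficient liver (17.4 to 22.6 against 36.3 to 51.3). Slc30a1 and Slc39a8 likewise had overlapping ranges in WT liver (10.4 to 11.6 and 7.91 to 11.4 CPM per kb) and not in OGT-deficient liver (9.35 to 10.6 and 6.19 to 7.84 CPM per kb). These overlaps lie between mice. Within every library Mt1 was above Mt2, Slc39a14 above Slc39a4, and Slc30a1 above Slc39a8. Slc39a5 was lowest, at 0.366 ± 0.0881 and 0.466 ± 0.156 CPM per kb in OGT-deficient and WT liver.

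**Figure D3:**
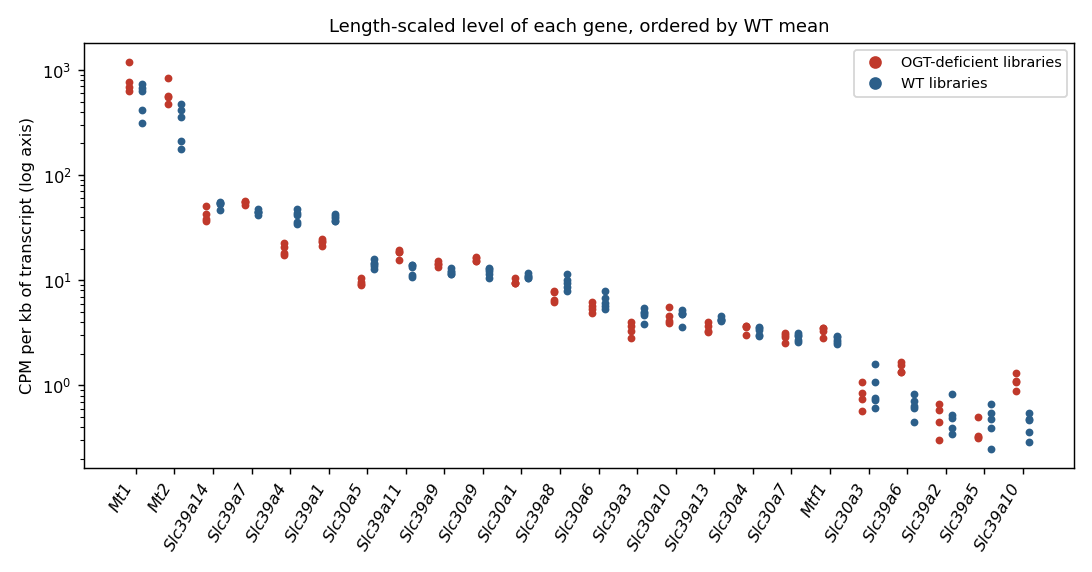
Level of each tested metallothionein, SLC30 and SLC39 gene and of Mtf1, in CPM per kb of transcript on a log axis, ordered by the WT mean, with a point for each OGT-deficient (red) and WT (blue) library. Mt1 and Mt2 lie above the transporters, Slc39a14 has the highest WT mean of the transporters, and Slc39a10 and Slc39a6 lie at the low end with OGT-deficient points above the WT points.

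The rest of both transporter families was read from lists of all their genes. Of 14 SLC39 genes 13 were tested, of which 5 rose and 6 fell, and their median log2 change was -0.27, with a median size of 0.43 regardless of sign. Those called made up 84.6% of the tested genes of the family, beside 61.1% of all genes. Of 10 SLC30 genes 8 were tested, of which 1 rose and 1 fell, and their median log2 change was -0.10, with a median size of 0.18 regardless of sign. Here the share called was 25% of the tested genes of the family, beside 61.1% of all genes. Whether the families differ from other genes or from each other was not tested. Slc30a2, Slc30a8 and Slc39a12 had at most 9 counts in any library and were not tested with the filter. With no such filter none of them was called in edgeR's test (adjusted p = 0.462, 0.118 and 0.309).

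Among the ZIP genes outside the set, 2 importers of the plasma membrane rose most. Slc39a10 (ZIP10), whose zebrafish and mouse transcripts are known to be repressed by zinc through MTF1, measured 7.27, 4.84, 6.02 and 5.90 CPM in OGT-deficient 1 to 4 and 1.60, 1.99, 2.58, 3.02 and 2.65 CPM in WT 1 to 5. All OGT-deficient libraries were above all WT libraries, and the log2 fold change was 1.36 (adjusted p = 6.3e-05, SE 0.19). Slc39a6 (ZIP6), its closest relative and heteromer partner, rose by 1.19 on the log2 scale (adjusted p = 6.57e-05, SE 0.17), to 5.74 ± 0.630 CPM (SD, n = 4) against 2.52 ± 0.529 CPM (SD, n = 5) in WT liver. Both remained low beside the importers that fell.

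In addition, 3 ZIP genes of internal membranes rose. Slc39a11 (ZIP11) rose by 0.50, Slc39a7 (ZIP7, the zinc release channel of the endoplasmic reticulum) by 0.29 and Slc39a9 (ZIP9) by 0.24 on the log2 scale (adjusted p = 0.000932, 0.00320 and 0.0128 in edgeR's test). Slc39a9 lost its call without OGT-deficient 2 (adjusted p = 0.0564). An overlapping transcript that the count files do not list, Gm20427, holds 83.9% of the 50-base stretches of Slc39a7, so its value is uncertain.

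Of the ZIP genes outside the set, 3 fell. Slc39a1 (ZIP1), a zinc importer of the plasma membrane found in most cells, measured 49.6, 58.8, 55.1 and 55.7 CPM in OGT-deficient 1 to 4 and 96.5, 101.6, 87.2, 92.2 and 86.5 CPM in WT 1 to 5. The groups stood apart, with a log2 fold change of -0.76 (adjusted p = 5.68e-06, SE 0.08). A processed pseudogene shares 21.8% of its 50-base stretches, so part of its reads could have been left out as non-unique. Slc39a3 (ZIP3) fell by 0.47 (adjusted p = 0.00498, SE 0.12) and Slc39a13 (ZIP13), of the secretory pathway, fell by 0.27 (adjusted p = 0.0319, SE 0.10) on the log2 scale. Slc39a13 kept its call in 9 of 16 alternative settings, and its log2 fold change was -0.14 (adjusted p = 0.225) with upper-quartile scaling. Slc39a2 had a log2 fold change of -0.032 (adjusted p = 0.935, SE 0.31).

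In the SLC30 family, Slc30a9, whose protein is known in mitochondrial zinc export, rose to 90.8 ± 3.54 CPM (SD, n = 4) against 68.4 ± 6.11 CPM (SD, n = 5) in WT liver. Its log2 fold change was 0.41 (adjusted p = 0.000816, SE 0.08). Slc30a5 (ZnT5), which loads zinc into the secretory pathway together with ZnT6, fell to 30.5 ± 2.14 CPM (SD, n = 4) against 45.3 ± 3.84 CPM (SD, n = 5) in WT liver, and its log2 fold change was -0.57 (adjusted p = 8.38e-05, SE 0.08). In both genes the groups did not overlap. The partner gene of Slc30a5, Slc30a6, had a log2 fold change of -0.20 (adjusted p = 0.180, SE 0.12). The remaining Slc30a3 (-0.25, adjusted p = 0.473), Slc30a4 (0.081, adjusted p = 0.472) and Slc30a7 (-0.0053, adjusted p = 0.964) did not pass edgeR's test either.

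**Figure D4:**
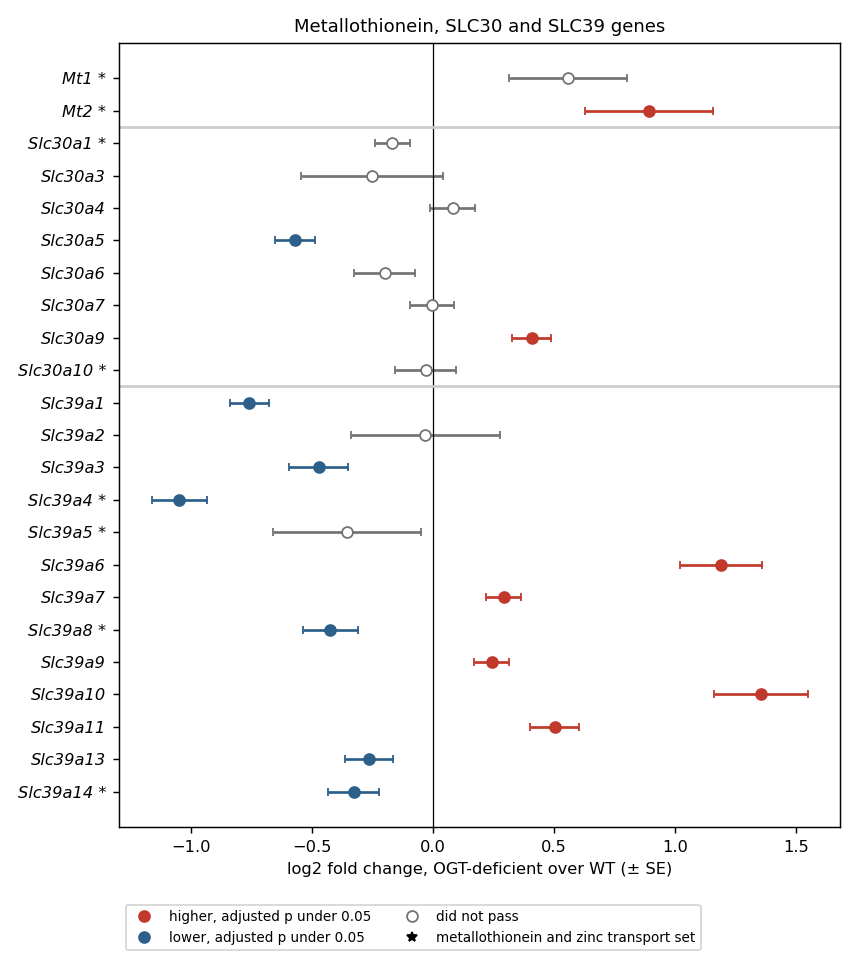
Log2 fold change of OGT-deficient over WT liver (horizontal axis, bars are SE) for every tested metallothionein, SLC30 and SLC39 gene, with stars on those of the set of 9 genes. Filled red and blue points passed the test upward and downward and open points did not, and ZIP genes lie on both sides, between -1.05 for Slc39a4 and 1.36 for Slc39a10.

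Genes that respond to the same regulators or handle other metals were read from lists that share some of the genes above. Of 9 genes tied to MTF1 in the literature, 4 rose and 0 fell, and their median log2 change was 0.56. The risers were Mt2, Slc39a10, Csrp1 (1.43, adjusted p = 2.66e-06, SE 0.14), which encodes a LIM-domain protein, and Gclc (0.72, adjusted p = 0.000579, SE 0.14), which encodes the catalytic subunit of glutathione synthesis and is also a target of NRF2. That is 44.4% of the list, beside 61.1% of all genes. Mt2 and Slc39a10 are known to respond to zinc in opposite directions, and both rose. The list thus holds induced and repressed genes, so its median is no measure of MTF1 activity, which was not tested.

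Of 7 manganese handling genes, 1 rose and 3 fell, which is 57.1% called, beside 61.1% of all tested genes. Slc40a1, which encodes the iron exporter ferroportin that also carries manganese, fell by 0.49 on the log2 scale (adjusted p = 0.00213, SE 0.11), beside Slc39a8 and Slc39a14. Atp2c1, which encodes a calcium and manganese pump of the Golgi, rose by 0.39 (adjusted p = 0.000679, SE 0.08).

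Of 12 copper handling genes 11 were tested, of which 5 rose and 3 fell, and their median log2 change was 0.24. That is 72.7% called, beside 61.1% of all tested genes, and the genes named are those with the smallest p. Slc31a1, which encodes the copper importer CTR1, fell to 172.7 ± 15.6 CPM (SD, n = 4) against 256.2 ± 10.4 CPM (SD, n = 5) in WT liver (log2 fold change -0.57, adjusted p = 6.35e-05, SE 0.08). Ccs, the copper chaperone for superoxide dismutase, fell by 0.66 (adjusted p = 4.48e-05, SE 0.09). Atox1, the chaperone that delivers copper to the ATPases of the secretory pathway, rose by 0.54 (adjusted p = 0.000125, SE 0.08) and the metalloreductase gene Steap4 by 1.27 (adjusted p = 5.04e-06, SE 0.13).

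STAT3 and the glucocorticoid receptor are other known inducers of metallothioneins. Of 23 acute phase genes 4 rose and 9 fell, and their median log2 change was -0.33. The share called was 56.5%, near the 61.1% of all tested genes. Lcn2, which encodes the iron-siderophore binding protein lipocalin 2, rose by 2.76 (adjusted p = 1.13e-06, SE 0.24) and Steap4 by the value above, while Saa4 fell by 1.64 (adjusted p = 2.11e-06, SE 0.15) and Orm1 fell by 1.52 (adjusted p = 9.7e-06, SE 0.17) on the log2 scale. Saa4 and Orm1 are made by hepatocytes, whose summed markers were lower in the same libraries, and a link between these falls was not tested. Of 11 glucocorticoid receptor genes and targets 1 rose and 4 fell, and their median log2 change was -0.36. The share called was 45.5%, below the 61.1% of all tested genes. The receptor gene Nr3c1 fell by 0.36 (adjusted p = 0.00187, SE 0.08) and its target Klf9 fell by 1.20 (adjusted p = 6.88e-06, SE 0.13). Fkbp5 fell by 0.67 (adjusted p = 0.0339, SE 0.25) and Zbtb16 rose by 0.77 (adjusted p = 0.0169, SE 0.25). Fkbp5 was called in 8 of 16 alternative settings, and its call was lost with DESeq2's Wald test, limma voom and upper-quartile scaling, and without WT 1, WT 3 or OGT-deficient 2, 3 or 4 (highest adjusted p = 0.0918). Zbtb16 lost its call without OGT-deficient 4 (adjusted p = 0.0767 in edgeR's test). The falls of this list numbered 2 to 5 over the alternative settings.

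The genes whose pattern over the 9 libraries was closest to that of each gene were found by the root mean square (RMS) difference of log2 CPM after each gene was centred on its mean, among genes averaging at least 5 CPM. Mt2 was the closest of 9513 genes to Mt1 (RMS difference 0.215), and Mt1 was the second closest to Mt2, after Lrtm1 (0.188). Ndrg1 was the closest to Slc30a1 (0.0441), Cyp2c50 and Amdhd1 to Slc39a4 (0.112 and 0.128), Tjp3 and Atf5 to Slc39a8 (0.0730 and 0.0731), and Pskh1 and the complement gene C8a to Slc39a14 (0.0632 and 0.0684). For Slc30a10 it was Cby1 (0.0970), for Mtf1 Gtf2a1 (0.0488) and for Slc39a5 Nr3c2 (0.197). The libraries share their genotype split, so this likeness describes the libraries and is given without a test.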

How the data were processed

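Deposited files hold, per the file contents, whole-number read counts for 24421 gene symbols in each of 9 libraries, without normalization, and 5 summary lines that were kept out of library sizes and tests. The submitters' processing notes name the build mm10 (GRCm38) and list TopHat2 2.1.0 beside HTSeq 0.9.1. Neither the annotation nor the strand setting is stated in the labels. Reads outside genes were 8.95 to 10.7% and reads overlapping several genes 1.78 to 2.17% of uniquely aligned reads. Non-unique alignments, which entered no count, were 0.205 to 0.224 per gene read in OGT-deficient and 0.314 to 1.02 in WT libraries. The groups thus did not overlap in this measure, and its part in the differences, that of Slc39a1 included, was not tested.

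Counts were tested in R 4.3.3 with edgeR 4.0.16 (filterByExpr, TMM, quasi-likelihood F test on group, threshold 0.05), and checked with limma 3.58.1 and DESeq2 1.42.0. The SE is the log2 fold change divided by the square root of F. Chi-square per degree of freedom between libraries of a group was 23.9 to 135.0, so none was a duplicate. Each library was taken as 1 mouse, since the series design gives 4 and 5 mice, and p-values measure the spread between these libraries. Positions and 50-base stretches came from GENCODE M21 (GRCm38). Named genes were the 9 genes, the rest of the metallothionein, SLC30 and SLC39 families, and up to 4 genes with the smallest p of each further list. Members and lists were chosen with earlier results of these data known. Figures used matplotlib 3.10.9. The alternatives were other scaling, filters and tests, the replicate number as a block, and leaving out each library.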

Additional observations from a re-analysis of the deposited data

Results flagged for a closer look

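Among 86 groups of 4 or 5 libraries examined for a value standing apart from the rest (Dixon's criterion at its 95% level, which chance meets in about 1 of 20 groups), 5 did so. Slc30a1 stood at 55.3 CPM in OGT-deficient 3, against 49.0 to 49.9 CPM in the other OGT-deficient libraries. Slc30a10 stood at 20.9 CPM in WT 4, against 27.95 to 30.4 CPM in the other WT libraries, and the ratio of Slc39a14 to Slc30a10 counts was accordingly highest there, at 13.2, against 8.13 to 9.42. Slc39a5 stood at 1.01 CPM in OGT-deficient 2, against 0.636 to 0.674 CPM in the others, from 40 counts. The copper chaperone gene Ccs stood at 188.9 CPM in OGT-deficient 3, against 149.8 to 152.4 CPM in the others. Only Slc30a1 among these genes changed its call when the library was left out, with an adjusted p of 0.0366 in edgeR's test.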

How the results depend on the processing

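Over 16 alternative settings, the 9 genes gave 143 values, of which 127 kept their direction and their side of the threshold, 6 lost a call, 7 gained one and 3 changed sign. Mt2, Slc39a4 and Slc39a8 were called in each of their 16 settings, none of which used plain library sizes. Leaving out each library in turn, the number of the 9 genes called higher was 1 to 3 and lower 3 each time, against 2 and 3 in the full fit. The 3 lower genes were not always the same. Without OGT-deficient 3, Slc39a14 lost its call (adjusted p = 0.0524) and Slc30a1 gained one (0.0366) in edgeR's test. Over all genes the calls were 4077 to 4392 higher and 3798 to 4131 lower. With DESeq2's Wald test 4 of the 9 genes were lower. The sign changes concerned uncalled genes. With upper-quartile scaling the log2 fold changes were 0.089 for Slc30a10, 0.12 for Slc30a7 and 0.094 for Slc39a2. With the filter of CPM 1 in 4 libraries they were 0.024 for Slc30a7 and 0.0023 for Slc39a2, and with limma voom 0.037 for Slc39a2. Leaving out single libraries gave -0.15 to 0.018 for Slc30a10, -0.44 to 0.024 for Slc30a3, -0.078 to 0.055 for Slc30a7 and -0.20 to 0.20 for Slc39a2. The cause was not tested. Same-numbered libraries did not deviate together (correlations of -0.103 to 0.104 over 4 pairs), so the numbers were not taken as pairs. With the replicate number as a block, 4109 genes were higher and 3760 lower, 3 of the 9 genes were higher and 2 lower, Mt1 was called (adjusted p = 0.0479), Slc39a14 was not (adjusted p = 0.0581), and the log2 fold changes of Slc30a7 and Slc39a2 were 0.025 and 0.16. Slc39a5, Slc39a2 and the untested genes rest on few counts (at most 81 in any library), and counting error was not separated from the spread between mice.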
